A study of Homo sapiens with 4 samples.

Results

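PCNP, UHRF1, UHRF2, the DNA methyltransferases DNMT1, DNMT3A and DNMT3B, and the methylcytosine dioxygenases TET1, TET2 and TET3 are the 9 genes described here. They were taken by gene symbol from a table of read counts for 24014 genes, where 8 of the 9 were found. UHRF1 was not analysed here. PCNP was chosen by its measured rise in the read counts of the comparison below, so its values are a description with no test. The other 7 were chosen for their link to PCNP and to DNA methylation.

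The counts came from RNA-seq of SK-N-SH cells, an established human neuroblastoma line. Control cells (2 libraries), titled WT in the labels, had been transduced with an empty lentiviral vector, and AP1AR-DT_OE cells (2 libraries) with a recombinant lentivirus carrying AP1AR-DT, a long non-coding RNA also named AC109347.1. All 4 libraries came from this 1 line. Nothing states that the libraries of a group came from separate cultures, so the tests measure only the spread between these libraries, which may be technical. The label check was met: AP1AR-DT (ENSG00000260526) had 3 and 18 counts in controls 1 and 2 and 680 and 1065 in AP1AR-DT_OE 1 and 2. For AP1AR-DT_OE 2 the genotype label reads AC109347.2 where the title reads AC109347.1, and the group was taken from the title.

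The proteins these genes encode have the following roles, and whether 1 route joins them was not tested here. PCNP is a small nuclear protein with PEST sequences, and it is a substrate of the ubiquitin ligase UHRF2. UHRF1, the close relative of UHRF2, binds hemimethylated DNA behind the replication fork and brings in DNMT1, which copies the methylation mark to the new strand. DNMT3A and DNMT3B place methyl groups on unmethylated CpG sites. TET enzymes oxidize 5-methylcytosine, the step that opens active demethylation.

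Processed pseudogenes, retrocopies of an mRNA, stand beside 3 of these genes, and their rows bear on what a count of the parent means. PCNPP5 on chromosome 13 was identical to the PCNP transcript at 96.6% of 417 aligned bases, PCNPP3 at 94.9% of 470 and PCNPP1 at 93.2% of 511. The longest stretch without a mismatch was 107, 57 and 58 bases, shorter than the 150-base reads. A stretch of 100 bases of each is shown on its sense strand, 5′ to 3′, with capitals at the bases that differ (GRCh37, PCNP at chr3:101311471-101311570 plus strand, PCNPP5 at chr13:48902242-48902341 minus strand).

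PCNP: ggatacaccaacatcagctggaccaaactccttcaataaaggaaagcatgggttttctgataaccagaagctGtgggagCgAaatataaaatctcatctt
PCNPP5: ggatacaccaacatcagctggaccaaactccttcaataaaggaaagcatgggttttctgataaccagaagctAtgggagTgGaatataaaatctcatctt

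UHRF2P1 on chromosome X was less like its parent than PCNPP5, with 93.8% identity over 2380 aligned bases and no identical stretch over 80 bases. The 100 bases printed next hold 7 differences, again in capitals (GRCh37, UHRF2 at chr9:6420912-6421011 and UHRF2P1 at chrX:73325555-73325654, both plus strand).

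UHRF2: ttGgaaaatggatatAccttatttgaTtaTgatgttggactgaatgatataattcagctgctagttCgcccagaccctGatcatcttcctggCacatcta
UHRF2P1: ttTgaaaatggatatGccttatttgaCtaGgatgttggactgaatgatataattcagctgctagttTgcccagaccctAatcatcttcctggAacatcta

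The retrocopy that the table describes as a UHRF1 pseudogene (ENSG00000256663, chromosome 12) was closest to its parent. It matched the UHRF1 transcript at 99.4% of 1422 aligned bases, with 8 mismatches and 1 identical stretch of 407 bases, longer than the 150-base reads. Reads from that stretch cannot be assigned to the parent or to the copy by sequence. The 100 bases shown are the same in both and so hold no capitals (GRCh37, UHRF1 at chr19:4950623-4950722 and the copy at chr12:20705081-20705180, both plus strand).

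UHRF1: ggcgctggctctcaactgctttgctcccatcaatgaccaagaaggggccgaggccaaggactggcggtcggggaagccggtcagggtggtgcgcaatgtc
ENSG00000256663: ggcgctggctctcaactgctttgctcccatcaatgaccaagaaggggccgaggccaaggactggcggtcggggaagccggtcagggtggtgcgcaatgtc

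The libraries held between 21988065 and 26184599 counts, and between 19833 and 21280 genes had a count above 0. Markers were those of SK-N-SH, which holds adrenergic and mesenchymal cells: 7 of 8 adrenergic and 8 of 8 mesenchymal markers had a row, and none was at 0 in all libraries. The summed normalized read count of the adrenergic markers lay between 20688 and 25418 in controls and between 22990.2 and 24372 in AP1AR-DT_OE, and that of the mesenchymal markers between 117092 and 156672 in controls and between 127459 and 149793 in AP1AR-DT_OE. VIM was the largest part of the mesenchymal sum (93086 and 67917 in control), so the sum says little about single markers. PRRX1, with 2769.9 and 11358 in control and 1241 and 2246 in AP1AR-DT_OE, is described at the end. Of 8 markers of blood, endothelial, epithelial and glial cells, 5 had a row, and KRT8, an epithelial keratin, was the 1 with a mean of at least 50.

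To ask whether raised AP1AR-DT moves with the RNA of PCNP, its ligase and the methylation enzymes, AP1AR-DT_OE was compared with control. A difference is given as Log2FC, the fitted log2 fold change of AP1AR-DT_OE over control, and a level as the normalized read count, the count divided by the library's size factor. Across all genes, 33 of 24014 were called at an adjusted p under 0.05 (DESeq2 Wald test), which is 0.137%. The 20 higher genes were 0.0833% of the table and the 13 lower genes 0.0541%. PCNP was among the higher genes, from which nothing is read since this contrast chose it. Of the other 7 members, 0 were called, and 0 had an unadjusted p under 0.05, beside 196 of the 24014 genes. With so few genes of the table under that limit, 0 of 7 says little about the members. The edgeR quasi-likelihood test called 0 genes of the table, with 112 at an unadjusted p under 0.05, and the edgeR test with a replicate block called 44.

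PCNP (ENSG00000081154, chromosome 3, 101574180 to 101594465 in GRCh38, plus strand) was the member with the large difference. Its counts were 34 in control 1, 74 in control 2, 500 in AP1AR-DT_OE 1 and 1005 in AP1AR-DT_OE 2. The AP1AR-DT_OE libraries were each far above both controls, and within each group number 2 was the higher. As normalized read counts these were 38.7, 57.1, 548 and 998, or 47.9 ± 13.0 (SD, n = 2) in control and 773 ± 318 (SD, n = 2) in AP1AR-DT_OE, a 16.1-fold ratio of the means. The Log2FC was 4.01 (SE 0.55). Taken by number, the log2 ratio was 3.82 for the libraries numbered 1 and 4.13 for those numbered 2.

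Where the mean over the 4 libraries reached 50 normalized reads (13298 genes), both AP1AR-DT_OE libraries lay above both controls for 5.11% and below both for 4.35%. PCNP was in the first of these sets by the choice made. Of the other members, 6 passed this limit, and 0 of the 6 lay wholly above or wholly below the controls.

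**Figure D1:**
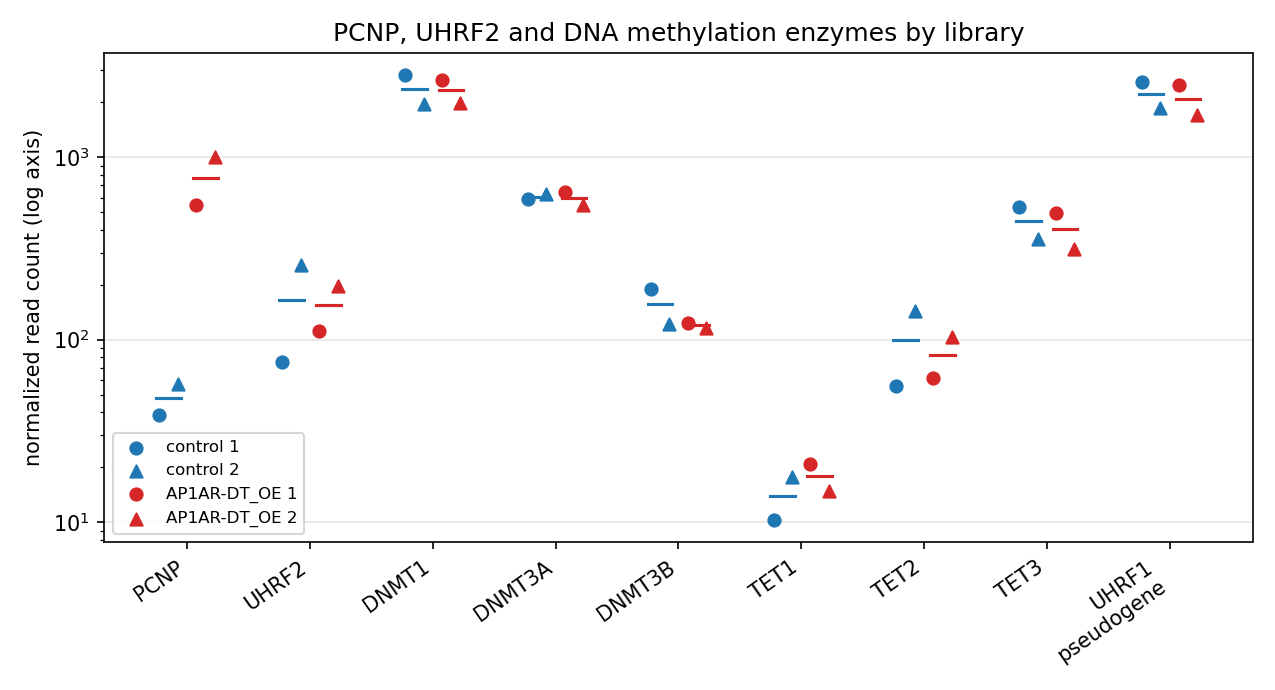
Normalized read counts (log axis) of the 8 members and of the row described as a UHRF1 pseudogene in each library, with circles for replicate number 1, triangles for number 2 and bars at the group means (n = 2). PCNP is at 38.7 and 57.1 in control and at 548 and 998 in AP1AR-DT_OE, while the libraries of the groups overlap for every other gene plotted.

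No pseudogene row of PCNP was called in either direction. PCNPP5 had normalized read counts of 223 and 399 in controls 1 and 2 and of 189.8 and 295 in AP1AR-DT_OE 1 and 2. Its groups overlapped, with a Log2FC of -0.36 (SE 0.56), and it was not called (adjusted p = 1.00, DESeq2). In control cells this pseudogene row thus carried more counts than PCNP itself, and in AP1AR-DT_OE cells fewer.

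PCNPP3 (4, 35, 4 and 15 counts) and PCNPP1 (16, 16, 4 and 16 counts, in the same order) were near the lower end of the table. With the 4 rows added together, PCNP held 13.6% and 11.5% of the sum in controls 1 and 2 and 73.4% and 75.4% in AP1AR-DT_OE 1 and 2. The share moved between the groups and hardly within them. The summed normalized read counts were 285, 495, 747 and 1323. The sums of AP1AR-DT_OE also lay above both controls, by a smaller ratio of means of 2.65-fold and a Log2FC of 1.41 (SE 0.52) than PCNP alone, and the sum was not called at an adjusted p under 0.05 (DESeq2). How reads were divided between these rows is not stated, and its part in the difference was not tested.

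The rows around PCNP stayed level with the table as a whole. Within 250 kb lay 11 other rows, of which 9 had a mean of at least 50 and 0 were called. Their Log2FC ran from -0.20 for ZBTB11, a zinc finger gene, to 0.64 for RPL24, a ribosomal protein gene, with a median of 0.01 beside -0.02 over all genes with such a mean. TRMT10C, a subunit of mitochondrial RNase P and the nearest neighbour, had 117 and 442 in control and 166 and 399 in AP1AR-DT_OE. Its spread between the libraries of a group was wider than the distance between the groups (Log2FC 0.01, SE 0.69).

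Inside the first intron of PCNP, on the opposite strand, lies RPS18P5, a retrocopy of the ribosomal protein gene RPS18 (RP11-234A1.1 in the table, 101576489 to 101576947 in GRCh38). It started 2209 bases from the first exon, was 459 bases long, shared 0 bases with PCNP exons and was 98.7% identical to RPS18. Its normalized read counts were 27051, 30304, 28633 and 34411, which overlapped between groups (Log2FC 0.14, SE 0.42). No source used here says whether counts were strand-specific, and this row held many times the counts of PCNP in every library.

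**Figure D2:**
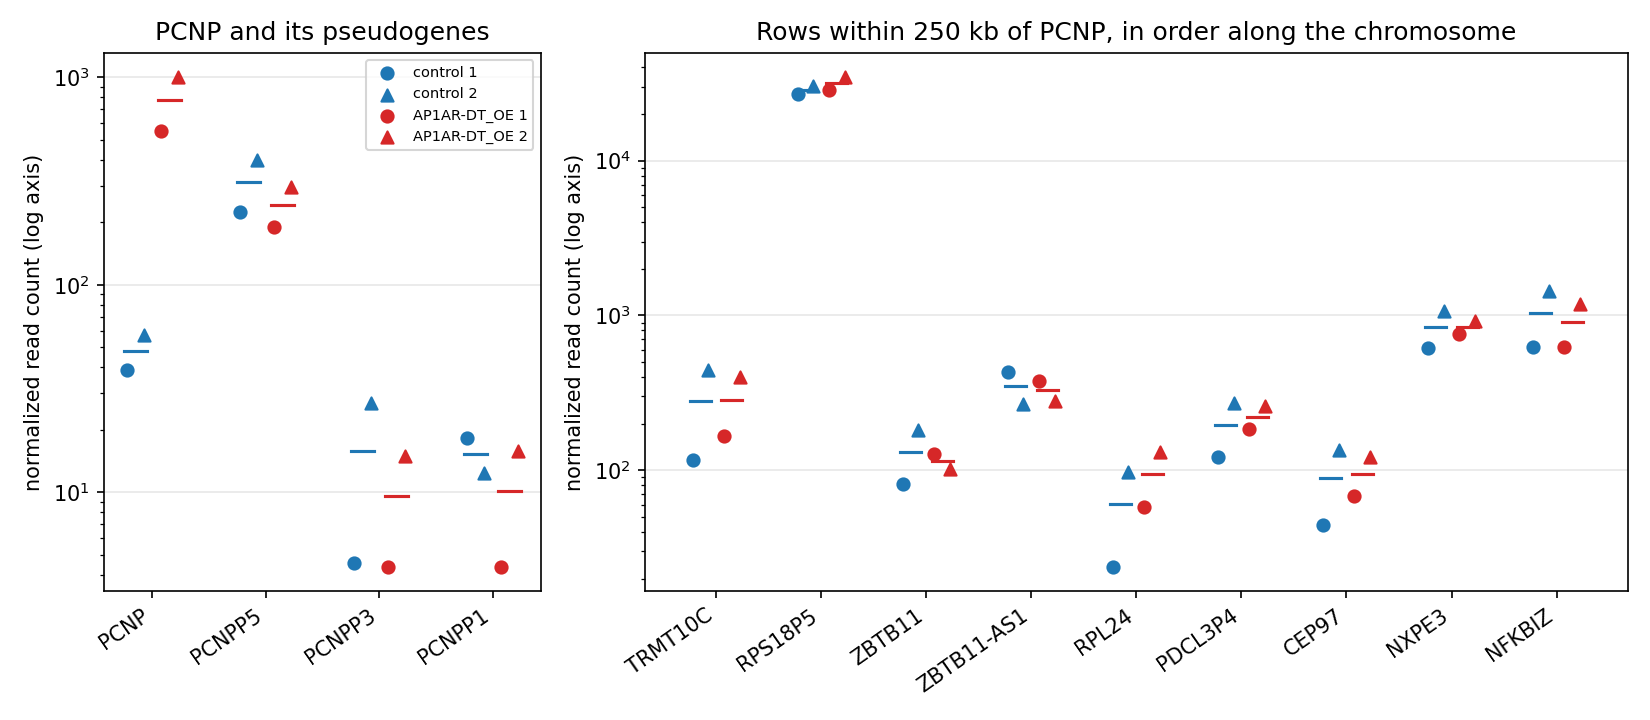
Normalized read counts (log axis) by library of PCNP and its 3 pseudogene rows (left) and of the 9 rows within 250 kb of PCNP with a mean of at least 50, in order along chromosome 3 (right), with bars at the group means (n = 2). PCNP is separated by group, whereas PCNPP5 at 223, 399, 189.8 and 295 and the neighbouring rows overlap between groups.

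UHRF2 (ENSG00000147854, chromosome 9, 6413151 to 6507054 in GRCh38, plus strand), the ligase that acts on PCNP, did not differ detectably. Its counts were 66 and 331 in controls 1 and 2 and 102 and 198 in AP1AR-DT_OE 1 and 2. The controls were the lowest and the highest of the 4 libraries, and AP1AR-DT_OE lay between them. The normalized read count was 165 ± 127 (SD, n = 2) in control and 154 ± 59.8 (SD, n = 2) in AP1AR-DT_OE, with a Log2FC of -0.10 (SE 0.69, 95% interval -1.46 to 1.25, adjusted p = 1.00, DESeq2). An interval this wide does not show that the groups are alike. Control 2 was 3.40-fold above control 1, and leaving out control 2 gave a Log2FC of 1.05, leaving out control 1 gave -0.73, and neither was called.

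UHRF2P1 went with its parent from library to library, at 79.7, 213, 76.8 and 176, and its groups overlapped too (Log2FC -0.22, SE 0.70). UHRF2 held 48.5% and 54.5% of the sum with UHRF2P1 in controls and 59.3% and 52.8% in AP1AR-DT_OE. For UHRF2 the division between gene and copy was thus close to even in each library, unlike that of PCNP.

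The ratio of PCNP to UHRF2 within a library sets substrate RNA beside ligase RNA, each per base of the longest transcript. On the log2 scale it was -0.25 in control 1 and -1.46 in control 2, against 2.998 in AP1AR-DT_OE 1 and 3.05 in AP1AR-DT_OE 2. The PCNP level was thus below that of UHRF2 in both controls and above it in both AP1AR-DT_OE libraries. With merged exons as the length the mean in control was 0.14 in place of -0.85, so which of the pair was higher in control cells depends on the length used.

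The row described as a UHRF1 pseudogene was among the higher ones of those compared here, with normalized read counts of 2571, 1859, 2493 and 1698. Its groups overlapped and it was not called (Log2FC -0.08, SE 0.46, adjusted p = 1.00, DESeq2).

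DNMT1 (ENSG00000130816, chromosome 19, 10133342 to 10231286 in GRCh38, minus strand), the maintenance methyltransferase, had the highest counts of the members in control cells. Its counts were 2468 and 2520 in controls 1 and 2 and 2427 and 2005 in AP1AR-DT_OE 1 and 2. Normalized, these were 2811, 1944, 2662 and 1990.0, so that number 1 was above number 2 in both groups and the groups overlapped. The means were 2377 ± 613 (SD, n = 2) and 2326 ± 475 (SD, n = 2), with a Log2FC of -0.03 (SE 0.46, 95% interval -0.93 to 0.86, adjusted p = 1.00, DESeq2). S1PR2, a receptor gene on the same strand within the DNMT1 span of the table, had a Log2FC of -0.17.

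The de novo methyltransferases differed in abundance, and neither was called between groups. DNMT3A (ENSG00000119772) had normalized read counts of 589 and 629 in control and 648 and 548 in AP1AR-DT_OE, and was the member with the tightest controls (Log2FC -0.03, SE 0.46, 95% interval -0.93 to 0.88). DNMT3B (ENSG00000088305) had 190.2 and 122 in control and 124 and 116 in AP1AR-DT_OE. Control 1 stood above the other 3 libraries, which were close together (Log2FC -0.38, SE 0.60, 95% interval -1.55 to 0.79, adjusted p = 1.00, DESeq2). The intervals of DNMT3A and DNMT3B do not show that the groups are alike.

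The log2 ratio of DNMT3A to DNMT3B per transcript length was 0.51 and 1.25 in control and 1.27 and 1.12 in AP1AR-DT_OE. DNMT3A was the higher of the pair in every library. The group means differed by 0.31 (exact permutation test, two-sided, p = 0.667, with 0.33 the smallest p that 2 libraries against 2 can give).

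The TET genes covered a wide range of levels. TET3 (ENSG00000187605) had normalized read counts of 533 and 357 in control and 494 and 313 in AP1AR-DT_OE, with number 1 above number 2 in both groups (Log2FC -0.14, SE 0.52). TET2 (ENSG00000168769) had 55.8 and 144 in control and 61.4 and 103 in AP1AR-DT_OE, with number 2 the higher in both (Log2FC -0.28, SE 0.73). TET1 (ENSG00000138336) rested on 9, 23, 19 and 15 counts, so its Log2FC of 0.34 had an SE of 1.25 and a 95% interval of -2.10 to 2.79. That interval covers large differences in either direction.

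Low counts in this table piled up at particular values. Entries of exactly 4 numbered 3287, against 2136 of 3 and 1509 of 5, and entries of 8 numbered 1342, against 1108 of 7 and 792 of 9. A low count may thus rest on fewer pairs of reads than its size shows, and how many counts a pair of reads gave was not tested. TET1 had the lowest counts of the members in every library.

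Per transcript length, the log2 ratio of TET1 to TET3 was -5.37 and -4.00 in control and -4.24 and -4.06 in AP1AR-DT_OE. That of TET2 to TET3 was -3.01 and -1.06 in control and -2.76 and -1.35 in AP1AR-DT_OE. TET3 was therefore the most abundant TET gene in all 4 libraries. Neither ratio showed a difference between the groups (exact permutation test, two-sided, p = 1.00 for each, smallest possible p = 0.33), and this design could not have reached the threshold.

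Set in order of level, in normalized read counts per kilobase of the longest transcript, the control cells had DNMT1 at 332 ± 85.7 (SD, n = 2), DNMT3A at 64.1 ± 2.97, UHRF2 at 44.4 ± 34.2, TET3 at 36.9 ± 10.3, DNMT3B at 35.7 ± 11.1, PCNP at 21.0 ± 5.68, TET2 at 9.84 ± 6.15 and TET1 at 1.46 ± 0.551. DNMT1 stood apart from the rest. UHRF2 overlapped DNMT3A, TET3, DNMT3B and PCNP in its range, TET3 and DNMT3B overlapped each other, and PCNP lay above TET2 in both controls.

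In AP1AR-DT_OE the order was PCNP at 338 ± 139, DNMT1 at 325 ± 66.4, DNMT3A at 62.9 ± 7.47, UHRF2 at 41.4 ± 16.1, TET3 at 33.4 ± 10.6, DNMT3B at 27.5 ± 1.27, TET2 at 8.10 ± 2.91 and TET1 at 1.86 ± 0.438. PCNP and DNMT1 overlapped in range. The remaining members kept the order they had in control. The order depends on the length used, an alternative chosen after seeing the data. With merged exons the UHRF2 mean was 16.7 ± 12.8 in control, below TET3 at 34.4 ± 9.61 and DNMT3B at 22.7 ± 7.03. In AP1AR-DT_OE the UHRF2 mean was again below both. By library UHRF2 was above DNMT3B in control 2 (25.7 against 17.7) and AP1AR-DT_OE 2 (19.8 against 16.9), and below it in control 1 and AP1AR-DT_OE 1. With merged exons PCNP, at 180.1 and 328 in AP1AR-DT_OE 1 and 2, no longer overlapped DNMT1, at 173 and 129. Against all genes with a transcript length, the PCNP level went from the percentile 45.1 in control to 81.2 in AP1AR-DT_OE, while DNMT1 was at 81.1 and 80.8 and UHRF2 at 54.9 and 54.7.

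The members of lower and of higher GC content differed in how the libraries of a group were spread. PCNP, TET1, TET2 and UHRF2 have longest transcripts with a GC content of 34.7%, 42.1%, 43.0% and 44.2%, and TET3, DNMT3A, DNMT3B and DNMT1 of 53.2%, 53.7%, 54.2% and 55.2%. In control, the log2 ratio of library 2 over library 1 was 0.56, 0.79, 1.37 and 1.76 for the first 4 and -0.58, 0.09, -0.64 and -0.53 for the last 4, in the same order. In AP1AR-DT_OE it was 0.86, -0.49, 0.75 and 0.81 for the first 4 and -0.66, -0.24, -0.09 and -0.42 for the last 4.

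In control, 4 of the 4 members of lower GC content were higher in library 2 and 3 of the 4 of higher GC content were lower there, the exception being DNMT3A. In AP1AR-DT_OE, 3 of the 4 members of lower GC content were higher in library 2, the exception being TET1, and 4 of the 4 of higher GC content were lower. Among the 4 members of lower GC content the control ratio rose with GC content, against the direction over the table. Across 13284 genes the ratio of library 2 over library 1 had a Spearman rho with GC content of -0.77 in control and -0.65 in AP1AR-DT_OE, across genes, which are not independent replicates. With a GC correction the Log2FC of UHRF2 was 0.03 and that of PCNP was 4.07.

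**Figure D3:**
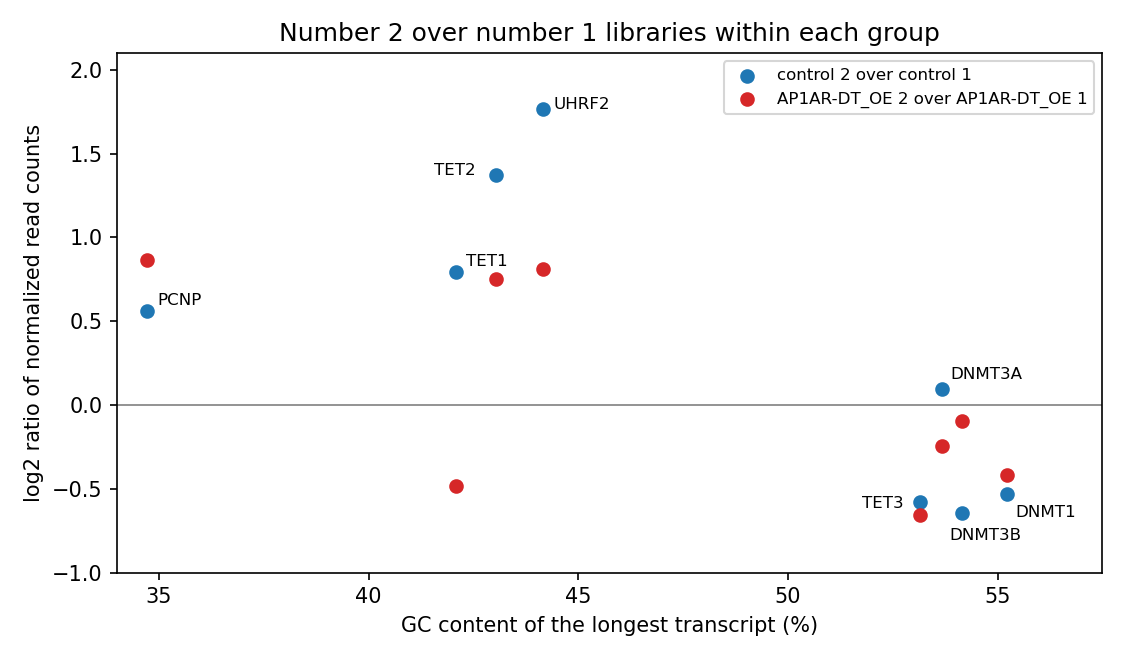
Log2 ratio of normalized read counts of library 2 over library 1 within control (blue) and within AP1AR-DT_OE (red) against the GC content of the longest transcript, 1 point per member and group. UHRF2 (1.76) and TET2 (1.37) are the highest points of the control series, and DNMT1, DNMT3B and TET3 lie below 0 in both groups.

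The members were also compared by their pattern over the 4 libraries. Likeness was taken as the root mean square difference in log2(normalized read count + 1), centred on each gene's mean over the 4 libraries. DNMT1 and TET3 were nearest to each other (0.11), UHRF2 and TET2 likewise (0.20), while UHRF2 and TET3 were the pair farthest apart among the 7 other members (0.98). The member nearest to PCNP was TET1, at 1.85, a distance that follows from the choice of PCNP by its rise. Among 13297 genes with a mean of at least 50, the 5 most like PCNP were SLC5A2, a renal glucose cotransporter (0.57), PPIF, the mitochondrial cyclophilin (0.62), LIN37, a subunit of the DREAM complex (0.69), KMO, kynurenine 3-monooxygenase (0.70), and AARSD1, an alanyl-tRNA editing protein (0.81). These were chosen for their likeness and so are a description. SLC5A2 had 51.3 and 25.5 in control and 327 and 642 in AP1AR-DT_OE, and PPIF 534 and 384 in control and 5472 and 4322 in AP1AR-DT_OE. LIN37 had 4.56 and 1.54 in control, which is few reads, and 72.4 and 123 in AP1AR-DT_OE. LIN37, KMO and AARSD1 were under 50 in both controls, and SLC5A2 in control 2. These 4 thus reached the mean of 50 through AP1AR-DT_OE, the group where they were high. AARSD1 was not called (adjusted p = 0.356, DESeq2).

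No call was made among the partners of these enzymes either. Of 54 genes in 4 lists, 53 had a row, and 0 were called against 0.137% of the table. An unadjusted p under 0.05 was found for 0 of the 53, beside 196 of 24014 genes, so these counts say little about the lists. The maintenance partners (11 of 12 with a row) had a median Log2FC of -0.07, beside -0.02 over all genes with a mean of at least 50, and 3 of 11 were above 0, beside 45.1% of those genes. KAT5, an acetyltransferase that acts on DNMT1, was the lowest at -0.59, and ZBTB24, an activator of CDCA7, the highest at 0.08. KAT5 had 1629 and 192 in control and 369 and 838 in AP1AR-DT_OE, a spread within control wider than the distance between groups. PCNA, the replication clamp that binds DNMT1, had 738 and 1628 in control and 721 and 1325 in AP1AR-DT_OE.

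The genes of active demethylation and repair (19 of 19 with a row) had a median of 0.01 over the 18 with a mean of at least 50, of which 9 were above 0. MBD4, a glycosylase for mismatched thymine, was the lowest at -0.34 and NEIL1, another DNA glycosylase, the highest at 0.27. TDG, the glycosylase that removes the oxidized bases made by TET enzymes, had 51.3 and 263 in control and 51.6 and 198 in AP1AR-DT_OE. Its libraries sorted by replicate number and not by group.

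The methyl-CpG readers (7 of 7) had a median of -0.06, from ZBTB33 (Kaiso) at -0.44 to MBD3 at 0.13. Of these, 1 of 7 was above 0, beside 45.1% of genes with a mean of at least 50. The S phase and proliferation genes (16 of 16) had a median of 0.09 over the 15 with a mean of at least 50, from CDC45, a helicase cofactor, at -0.69 to TYMS, thymidylate synthase, at 0.29. For 13 of these 15 the Log2FC was above 0, beside the same 45.1%, and this was not tested as a set. Of the 16, 0 were called in either direction, beside 0.137% of the table. The smallest unadjusted p of this list was 0.38 (DESeq2 Wald test). MKI67, the marker of cycling cells, had 2911 and 1497 in control and 2215 and 1751 in AP1AR-DT_OE.

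**Figure D4:**
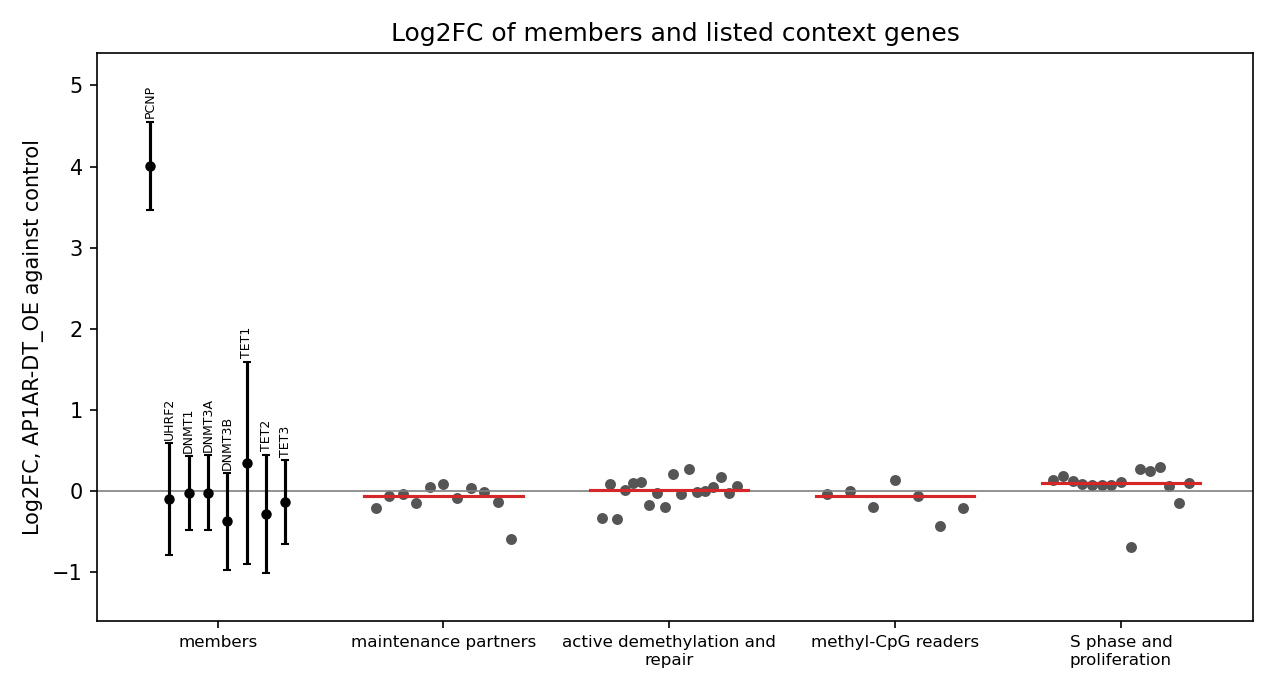
Log2FC of AP1AR-DT_OE against control for the 8 members (black, bars are 1 SE) and for the genes of 4 context lists whose mean reached 50 normalized reads (grey points, red line at the median). PCNP is at 4.01, the other members lie between -0.38 and 0.34, and the listed genes between -0.69 and 0.29.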

How the data were processed

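Reads per gene were deposited by the authors as whole-number counts for 4 libraries, with no normalization. According to the methods of the study, 150-base paired-end reads were aligned to hg19 with HISAT2 and counted with StringTie and its Python script, whereas the submitters' processing notes name TopHat2 2.0.4, HTSeq, Cuffdiff and edgeR 2.6.12. Counting across pseudogene copies can differ between these, and neither source states strand or annotation. Gene positions in the table are GRCh38. The deposited fold changes and p-values of the authors' own tests were not used.

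Counts were tested with DESeq2 1.42.0 (Wald test, median-of-ratios size factors, Benjamini-Hochberg over 24014 genes, call at adjusted p under 0.05) in R 4.3.3, with edgeR 4.0.16 as an alternative. Levels are mean ± SD, n = 2, and 95% intervals are normal intervals of the Log2FC. Transcript length and GC content came from GENCODE v44 on GRCh37 for 23954 genes. Pseudogenes were aligned to transcripts with Biopython 1.88. Tested on simulated data with 2 libraries a group, the Wald procedure recovered nearly all large folds and few small ones, and made more false calls than its threshold allows, so its calls across the table may be too many. The simulated libraries held no spread tied to GC content or to replicate number, so that rate of false calls need not hold for these libraries. In the real libraries 196 of 24014 genes had an unadjusted p under 0.05 (DESeq2 Wald test), a smaller share than that threshold. Whether the calls are too many or too few was not tested.

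Named genes were the members, rows within 250 kb of PCNP or named after it, the 5 rows most like PCNP, the nearest member of each, and listed genes, with the lowest and highest Log2FC of each list at a mean of at least 50. UHRF2P1, the UHRF1 pseudogene row, S1PR2, PCNA, TDG and MKI67 were named in addition after their values were seen. Members and lists were chosen with earlier results of these data known.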

Additional observations from a re-analysis of the deposited data

How the results depend on the processing

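No other member and no context gene was called under any alternative. The count of called genes was 33 and became 0 with edgeR, 15 once all counts were divided by 4, 55 under a GC correction and 60 under that correction plus the replicate block. Leaving out single libraries gave 45 (AP1AR-DT_OE 1), 50 (AP1AR-DT_OE 2), 75 (control 2) and 90 (control 1). The replicate block gave 37. The labels do not say that numbers mark a shared batch, and only 2 pairs exist; deviations of same-numbered libraries correlated at 0.41 over 16730 genes. The PCNP Log2FC was 3.99 with the replicate block, between 3.50 and 4.37 with a library left out, and 1.41 when summed with its pseudogene rows. That sum, and the edgeR test with the block, were chosen after seeing the data. The sign of UHRF2 turned with the replicate block (0.082), edgeR with the block (0.068), GC correction (0.031) and both (0.12). With a library left out, the Log2FC ran from -0.73 to 1.05 for UHRF2, -0.26 to 0.26 for DNMT1, -0.16 to 0.078 for DNMT3A, -0.81 to 0.57 for TET2 and -0.51 to 0.17 for TET3, so each sign rested on single libraries; it kept its sign for DNMT3B (-0.65 to -0.02) and TET1 (0.01 to 0.81). With merged exon length the log2 ratio of PCNP to UHRF2 was 0.14 in control and 4.02 in AP1AR-DT_OE, and that of DNMT3A to DNMT3B was 1.31 in AP1AR-DT_OE; the other ratios moved by less than 1 SD. A change of length shifts a log2 ratio alike in every library, and the PCNP to UHRF2 ratio differed between groups by 3.88 with either length. The cause of the other shifts was not tested. A ratio of UHRF1 to UHRF2 was not run.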

Other observations

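RefSeq promoter windows (250 bases before to 50 bases after a start, GRCh38.p14) were found for all 9 members, 20 windows in all. The PCNP window held 23 CpG sites, that of UHRF2 26 and that of DNMT1 30, against a median of 14 over 35116 windows (quartiles 4 and 28). The DNMT3B window held 3, and the windows of TET3 held 45 and 33. That DNMT3B window (chromosome 20, 32779602 to 32779901) lay inside the gene, which starts at 32762385. The DNMT1 window (chromosome 19, 10194904 to 10195203, minus strand) also lay inside its gene span, 10133342 to 10231286. So did the TET3 window with 33 sites (from 74002442, in a gene that starts at 73984910). Some windows of DNMT3A, TET1 and TET2 lay inside their genes as well. The CpG counts and motif matches of such windows therefore do not describe the region before the gene span. The letters CGCATGCG, the core of the NRF1 motif, searched on both strands, were found in the DNMT1 window and in no other member window, and in 2.02% of all windows. The E2F-like letters TTTNNCGC (N is any base) were searched in the same way. They were found in the DNMT1 window, in windows of UHRF1 and in no window of another member, and in 6.89% of all windows. A match describes the letters of the window and not the binding of a factor.

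PRRX1, a mesenchymal homeobox gene, had normalized read counts of 2769.9 and 11358 in control and of 1241 and 2246 in AP1AR-DT_OE. It was the mesenchymal marker with the lowest Log2FC (-2.02, SE 0.61), was not called after adjustment over all genes, and the other 7 markers of that list lay between -0.41 and 0.12. The controls differed more from each other than the lower control did from AP1AR-DT_OE 2.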
